A study of Mus musculus with 8 samples.

Results

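The first 2 days of adipogenic induction were followed in mock-transduced 3T3L1 cells, a mouse preadipocyte line (breed Swiss albino) that turns into fat cells after hormonal induction. These cells (TOM) carried a lentivirus for Cas9 with a guide RNA against tdTomato, were selected with puromycin and then diluted for single-cell cloning, which makes them a cloned line. TOM cells at day 2 after the cocktail of dexamethasone, IBMX and insulin (2 libraries) were compared with TOM cells at day 0 (2 libraries). They make up 4 of the 8 libraries, and the other 4 came from Ddx6-KO cells, made in the same way with a guide against Ddx6, at the same days. The sample titles separate day 0 from day 2, whereas the treatment note shared by every sample gives harvest at day 2 only, and the titles were followed. The comparison covered 15811 of 46073 genes, those with at least 1 FPKM (fragments scaled to gene length and library total) in at least 2 of the 8 libraries.

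Preadipocytes commit to the fat lineage when glucocorticoid, cyclic AMP and insulin signals meet. A first wave of transcription factors, C/EBPβ, C/EBPδ and Krüppel-like factors among them, appears early and is followed by PPARγ and C/EBPα, which switch on the genes for fatty acid uptake, triglyceride assembly and lipid droplet coats. The cells also exchange a fibrous matrix for one rich in basement membrane proteins, and take their actin stress fibres apart.

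Depth was read from the value of a single fragment, which gave, in M (mega) fragments, about 2.7 and 3.0 in the day 2 libraries, against about 23.7 and 3.8 in the day 0 libraries. Low values were therefore less certain in both day 2 libraries and in library 2 of day 0 than in library 1 of day 0. Pearson's r of log2(FPKM + 1) over the tested genes, which are no independent replicates, was 0.941 between the day 2 libraries and 0.946 between the day 0 libraries. Ddx6, the target in the other line, had 28.8 and 28.4 FPKM in TOM cells at day 2, against 11.3 and 19.9 FPKM at day 0 (log2 change 0.88, standard error 0.25, adjusted p = 0.0854, and, of the fits that left out a library, past 0.05 only without library 2 of TOM day 0, adjusted p = 0.0174). A level over the whole gene does not check a short deletion. Nothing in the labels says that the libraries came from separate cultures. A p-value here reflects how far all 8 libraries, those of Ddx6-KO cells included, spread around their group means, which may be technical. Small RNAs took 53.2% and 53.3% of the FPKM sum at day 2, against 44.4% and 39.9% at day 0, and their part in the results was not tested.

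By day 2, 538 genes were higher (3.4% of the tested genes) and 592 were lower (3.74%), which is 7.15% in either direction, at an adjusted p under 0.05 (limma's moderated test, Benjamini-Hochberg over all tested genes, the source of every adjusted p here). Changes are differences of the mean log2(FPKM + 1), a scale that understates the change of genes of low level. The change was at least 1 log2 unit for 367 of the higher and 475 of the lower genes, and at least 2 log2 units for 94 and 160. In every called gene the day 2 and day 0 libraries did not overlap. With 2 libraries a day this is a weak mark, since it also held for many uncalled genes. Of 90 tested nuclear-encoded respiratory chain genes, 29 were apart upward and 9 downward, and 1 was called. The share of all tested genes that lay apart is not given here. These counts are therefore only an example, and no shift of the list (median change 0.15) is read from them. The median change of all tested genes was 0.03, and rescaling each library to the same total (TPM) moved it to -0.14 and gave 315 higher and 793 lower genes. The spread was pooled over TOM and Ddx6-KO libraries, and a fit of the TOM libraries alone gave 139 higher and 180 lower genes. Leaving out library 1 of TOM day 2 gave 213 higher and 300 lower genes, library 2 of TOM day 2 gave 242 and 337, library 1 of TOM day 0 gave 315 and 319, library 2 of TOM day 0 gave 424 and 355, library 1 of KO day 0 gave 330 and 410, and library 2 of KO day 0 gave 329 and 409. In all, 181 of the higher and 232 of the lower genes were called in each of the 8 fits that left out a library. The filter let 107 genes through on 1 TOM day alone, and 32 of these were called.

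**Figure D1:**
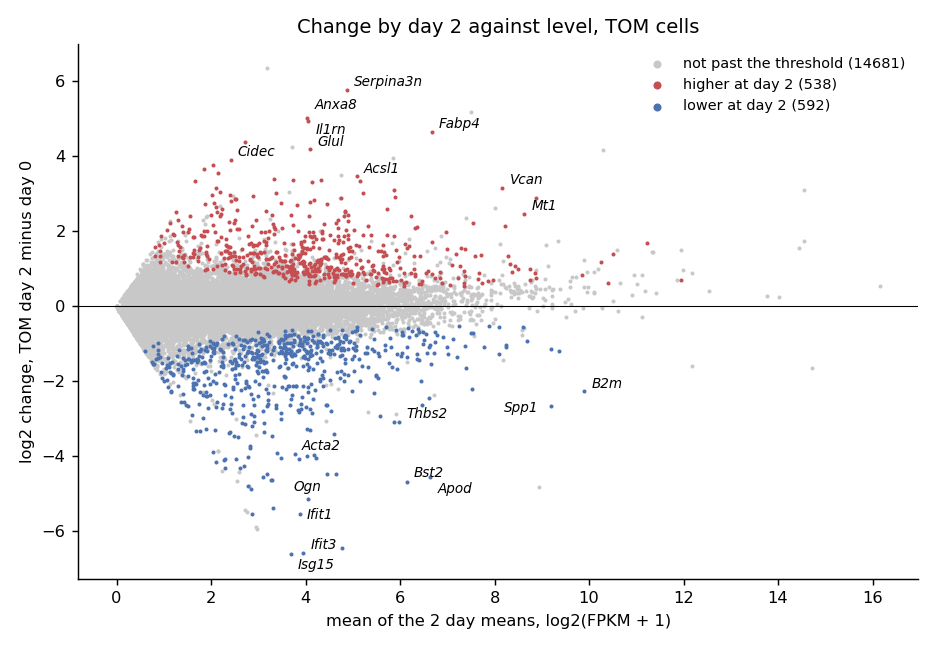
Each point is a tested gene, with its mean level over both days as log2(FPKM + 1) on the x axis and its log2 change in TOM cells, day 2 minus day 0, on the y axis. The 538 higher genes are red and the 592 lower genes blue, with Serpina3n and Fabp4 among the highest changes and interferon-response genes such as Isg15 and Ifit3 at the bottom.

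The genes with the largest falls belonged to the type I interferon response, the set of antiviral genes that cells switch on through the receptor subunits IFNAR1 and IFNAR2 and the kinase JAK1, and through transcription factors that bind the interferon-stimulated response element (ISRE) near their start sites. Of 57 listed response genes, 56 were tested, and 53 were lower and none higher at day 2, with a median change of -3.22. The count stayed between 48 and 54 when each library was left out. To show where that element stands in these genes, promoters were taken from RefSeq (GRCm38.p6, 250 bases before to 50 bases after each start), which matched 10090 tested genes, and searched on both strands for GAAANNGAAA, in which matches may overlap. A match stood in the promoters of 21 of 42 response genes that had one in the table (50%), in 60 of 442 lower genes (13.6%), in 13 of 375 higher genes (3.47%) and in 392 of all 10090 (3.89%). Among lower genes outside the interferon and MHC class I lists, 36 of 392 held one (9.18%). The lists do not hold every gene of the response, so some of these 36 may belong to it, which was not tested. A match is only a description of the letters. The windows of 4 response genes with among the steepest falls are printed 5′ to 3′ on the strand of the gene, with each match in capitals and 20 bases on either side.
Isg15 (chr4:156200855-156200916, minus strand, first match 78 bases before the start): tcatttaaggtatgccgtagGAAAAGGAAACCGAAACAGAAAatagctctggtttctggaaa
Ifit3 (chr19:34583353-34583436, plus strand, first match 156 bases before the start): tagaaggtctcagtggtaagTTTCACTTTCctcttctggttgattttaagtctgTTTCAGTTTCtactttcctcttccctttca
Ifit1 (chr19:34640765-34640833, plus strand, first match 104 bases before the start): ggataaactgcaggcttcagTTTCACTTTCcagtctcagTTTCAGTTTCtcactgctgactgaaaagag
Bst2 (chr8:71537567-71537622, minus strand, first match 130 bases before the start): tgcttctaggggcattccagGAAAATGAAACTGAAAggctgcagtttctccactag
The 3 matches of Isg15 and the 2 of Bst2 ran into each other, and the 2 of Ifit3 and of Ifit1 lay apart and in the reverse direction.

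Isg15, a ubiquitin-like protein that is attached to other proteins during viral infection (GRCm38, chr4:156199424-156200818), had 0 and 0.613 FPKM at day 2, against 145 and 108 FPKM at day 0 (log2 change -6.63, standard error 0.44, adjusted p = 0.000276). Ifit1, which binds viral RNA caps, had 0.976 and 1.32 FPKM at day 2, against 98.6 and 100 FPKM at day 0 (log2 change -5.55, standard error 0.32, adjusted p = 0.000179). Both were at 98.6 FPKM or more in each day 0 library and at most 1.32 FPKM in each day 2 library. Ifit3 had 0.256 and 0.926 FPKM at day 2, against 154 and 144 FPKM at day 0 (log2 change -6.59, adjusted p = 8.69e-05). Its near-identical neighbour Ifit3b changed by -5.40, and reads could have been split between the pair. Mx1, a GTPase that traps viral particles, had 0.309 and 0.279 FPKM at day 2, against 36.9 and 33.3 FPKM at day 0 (log2 change -4.80, adjusted p = 0.000117). Oasl2 (log2 change -5.16), Rtp4 (-4.64), Usp18, the protease that removes Isg15 from proteins (-4.63), the GTPase Igtp (-4.55) and Ifi27l2a (-6.47, 0 and 4.79 FPKM at day 2, against 273 and 165 FPKM at day 0) were also among the 12 largest falls. A value of 0 may be a failed estimate here, since 7 ribosomal protein genes that were not tested are also listed at 0 in a TOM library, among them Rpl17, Rps13 and Rps16, which every cell uses.

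Bst2, the membrane tether that holds budding virus on the cell (GRCm38, chr8:71534255-71537456), stayed well above zero, with 14.7 and 10.9 FPKM at day 2, against 423 and 297 FPKM at day 0 (log2 change -4.70, standard error 0.25, adjusted p = 0.000143). The chemokine Cxcl10 had 2.74 and 2.33 FPKM at day 2, against 56.5 and 59.8 FPKM at day 0 (log2 change -4.07, adjusted p = 0.000179). Both genes kept a measurable level at day 2 with no overlap between the days. The 3 tested response genes that did not pass were Ifi27, with 48.7 and 37.9 FPKM at day 2, against 42.0 and 20.6 FPKM at day 0 (adjusted p = 0.442), Trim25 (log2 change -1.39, adjusted p = 0.0601, but 0.0414 at most without either KO day 2 library) and Oasl1, which had at most 1.05 FPKM in a TOM library.

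MHC class I genes, which load peptides for display to T cells and respond to interferon, fell as well. Of 13 tested genes of that list, 11 were lower and none higher, with a median change of -1.99, and 9 to 12 were lower when each library was left out. B2m, the invariant light chain of MHC class I, had 428 and 437 FPKM at day 2, against 2100 and 2070 FPKM at day 0 (log2 change -2.27, standard error 0.15, adjusted p = 0.000276). The heavy chain H2-K1 had 43.2 and 41.6 FPKM at day 2, against 195 and 151 FPKM at day 0 (log2 change -1.99). H2-D1 had 92.1 and 93.8 FPKM at day 2, against 303 and 289 FPKM at day 0 (log2 change -1.66). Classical heavy chains are similar in sequence, so their levels are less certain than that of B2m. Tap1, a subunit of the peptide transporter, changed by -2.38, and Psmb8, a subunit of the immunoproteasome, by -2.96, with 1.87 and 0.75 FPKM at day 2, against 18.4 and 14.7 FPKM at day 0.

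The receptors and kinases upstream of the response differed less. Of 13 tested ligands and signalling genes, 2 were lower and none higher (median change -0.22), and 1 was lower with any 1 of the 4 TOM libraries left out. The transcription factor Irf1 had 18.6 and 17.1 FPKM at day 2, against 38.8 and 43.4 FPKM at day 0 (log2 change -1.16, adjusted p = 0.00448), and was the gene that kept its call. Ifnar2 changed by -0.79 (adjusted p = 0.0278, at most 0.133 with a library left out). Ifnar1 had 18.7 and 17.9 FPKM at day 2, against 20.3 and 18.7 FPKM at day 0 (adjusted p = 0.802). Jak1 had 31.5 and 29.0 FPKM at day 2, against 35.1 and 49.3 FPKM at day 0 (adjusted p = 0.23). The ligand Ifnb1 was listed at 0 in both day 2 libraries, with 0.399 and 0.494 FPKM at day 0, and was below the filter. Stat2, another signalling gene, was called lower but was not counted in this list. The count therefore depends on how the genes were listed.

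**Figure D2:**
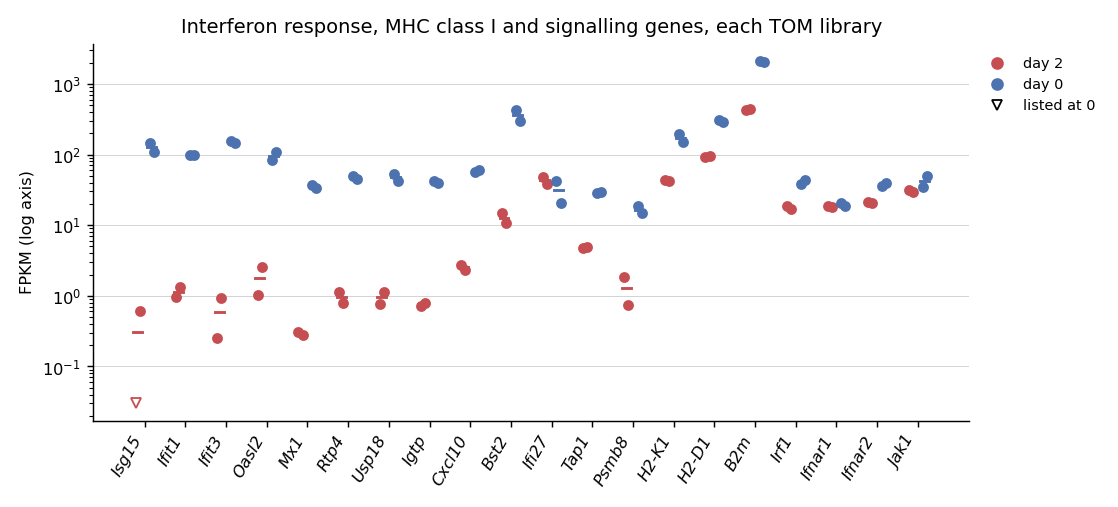
FPKM on a log axis for genes of the interferon response, MHC class I and interferon signalling, with day 2 (red) left of day 0 (blue), 1 point per TOM library and a bar at the mean of 2. Points listed at 0 are open triangles at the foot of the axis, and the response genes lie far apart between the days while Ifi27, Ifnar1 and Jak1 lie close together.

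Among genes known to be induced by glucocorticoid, the signal that dexamethasone gives, 10 of 16 tested were higher and none lower, with a median change of 1.80, and 8 to 10 were higher when each library was left out. Serpina3n, a secreted serine protease inhibitor (GRCm38, chr12:104406729-104414329), had 206 and 227 FPKM at day 2, against 2.55 and 3.39 FPKM at day 0 (log2 change 5.78, standard error 0.16, adjusted p = 2.66e-05), the largest rise under the naming rule. Its neighbours Serpina3m (3.78) and Serpina3k (3.67) rose too, and since the cluster shares sequence, reads could have been split among them. Glul, the glutamine synthetase, had 72.5 and 71.5 FPKM at day 2, against 2.67 and 3.38 FPKM at day 0 (log2 change 4.19, standard error 0.16, adjusted p = 5.7e-05). Fkbp5, a cochaperone that holds back the glucocorticoid receptor, had 109 and 98.0 FPKM at day 2, against 9.02 and 15.3 FPKM at day 0 (log2 change 3.03, adjusted p = 0.000585). Day 2 values of these genes were far above both day 0 values. A fixed form of the glucocorticoid response element, searched in the same promoters, stood in 1 of 15 genes of the list (6.67%). It stood in 0 of 375 higher genes and in 2 of all 10090 (0.0198%), too few to compare.

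Among the others of that list, Tsc22d3, also called GILZ, had 78.9 and 86.4 FPKM at day 2, against 20 and 16.1 FPKM at day 0 (log2 change 2.14). The metal-binding metallothionein Mt1 had 940 and 903 FPKM at day 2, against 173 and 161 FPKM at day 0 (2.46). Mt2 changed by 2.09. Errfi1, an inhibitor of the EGF receptor, changed by 2.29, and Ddit4, an inhibitor of mTOR signalling, by 2.23. Sgk1, a kinase often used as a glucocorticoid target, had 34.5 and 17.7 FPKM at day 2, against 24.9 and 17.5 FPKM at day 0, which overlap (adjusted p = 0.784). The glucocorticoid receptor itself, Nr3c1, had 14.6 and 16.7 FPKM at day 2, against 20.8 and 18.9 FPKM at day 0 (adjusted p = 0.49). Outside the list, Fam107a had 17 and 11.8 FPKM at day 2, against 0.268 and 0.295 FPKM at day 0 (3.56). Cdo1, the cysteine dioxygenase, changed by 3.38.

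Targets of cyclic AMP, which IBMX preserves by blocking phosphodiesterases, gave 4 higher and no lower genes of 13 tested (median change 0.89), and 3 or 4 were higher with each library left out. Rgs2, a brake on G protein signalling, had 190 and 155 FPKM at day 2, against 19.8 and 18.4 FPKM at day 0 (log2 change 3.10, standard error 0.15, adjusted p = 0.000117). Pde4b, a phosphodiesterase that cyclic AMP itself induces, had 29.8 and 26.9 FPKM at day 2, against 2.22 and 3.02 FPKM at day 0 (log2 change 3.02, adjusted p = 0.000366). Pde4d changed by 1.47. Each of the 3 was clearly apart between the days, whereas Gem, another cyclic AMP target, had 13.7 and 15.7 FPKM at day 2, against 11 and 11.1 FPKM at day 0 (adjusted p = 0.219). The promoters were also searched for the cyclic AMP response element, which stood in 1 of 10 genes of the cyclic AMP list (10%). It stood in 9 of 375 higher genes (2.4%) and in 352 of all 10090 (3.49%). Of 15 tested genes of the insulin and IGF axis, 3 were higher and 1 was lower. Pik3r1, the regulatory subunit of PI3-kinase, had 112 and 107 FPKM at day 2, against 25.3 and 33.8 FPKM at day 0 (log2 change 1.87, adjusted p = 0.00072), and the imprinted non-coding RNA H19 had 33.1 and 25.2 FPKM at day 2, against 5.07 and 4.14 FPKM at day 0 (2.42). With a library left out, 2 or 3 were higher, and none was lower without either TOM day 2 library.

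Several early transcription factors of adipogenesis were higher, and the late ones less surely so. Of 18 tested first-wave factors, 8 were higher and none lower (median change 0.41), and 6 to 8 were higher with each library left out. Klf5, a Krüppel-like factor that acts on the Pparg promoter, had 8.58 and 12.2 FPKM at day 2, against 0.332 and 0.564 FPKM at day 0 (log2 change 2.96, standard error 0.26, adjusted p = 0.000719). Nfil3, a leucine zipper repressor, had 39.2 and 35.8 FPKM at day 2, against 6.61 and 5.98 FPKM at day 0 (2.40, adjusted p = 0.000405). Cebpd had 79.4 and 86.5 FPKM at day 2, against 34.1 and 29.0 FPKM at day 0 (1.37, adjusted p = 0.00107). Cebpb had 76.7 and 74.5 FPKM at day 2, against 35.5 and 41.4 FPKM at day 0 (0.96, adjusted p = 0.00485). Fosl2, an AP-1 subunit, changed by 1.55 and Klf9 by 1.20.

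In the second wave, 5 of 10 tested factors were higher and none lower (median change 1.07). The higher ones were 2 with any 1 of the TOM or KO day 0 libraries left out, 3 without either KO day 2 library, and 2 after TPM rescaling. Pparg, the nuclear receptor that governs the adipocyte programme, had 34.6 and 44.0 FPKM at day 2, against 19.6 and 14.0 FPKM at day 0 (log2 change 1.19, standard error 0.25, adjusted p = 0.0297), and it lost the call with any 1 of the TOM or KO day 0 libraries left out (adjusted p up to 0.171). Cebpa had 5.25 and 4.60 FPKM at day 2, against 1.96 and 1.07 FPKM at day 0 (1.26, adjusted p = 0.0469), and lost the call with any 1 of the 8 libraries left out (up to 0.219). Both genes were apart between the days in these 4 libraries, as many uncalled genes were too. Rxra, the partner of PPARγ in DNA binding, had 81.2 and 77.8 FPKM at day 2, against 19.5 and 21.7 FPKM at day 0 (1.90, adjusted p = 0.0051). Srebf1, a driver of lipid synthesis, changed by 1.22 (adjusted p = 0.00519). These 2 were the second-wave genes called in every fit with a library left out.

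Genes that hold back adipogenesis moved in both directions. Of 21 tested negative regulators, 4 were higher and 2 lower (median change -0.16), but 1 was higher without either TOM day 2 library, and 2 without library 1 of TOM day 0 or either KO day 0 library. The lower ones were 1 without library 2 of TOM day 2, 3 with either KO day 2 library left out and 4 after TPM rescaling. Id2, an inhibitor of helix-loop-helix factors, had 10.6 and 9.24 FPKM at day 2, against 1.19 and 0.791 FPKM at day 0 (log2 change 2.46, adjusted p = 0.00322). Its relative Id1 had 48.3 and 56.2 FPKM at day 2, against 15.3 and 12.1 FPKM at day 0 (1.86). Id2 and Id1 are not both on the list of negative regulators, so its counts do not cover each of them. Ddit3, the stress factor CHOP that blocks C/EBP proteins, fell to 20.1 and 23.4 FPKM at day 2, against 70.4 and 67.1 FPKM at day 0 (log2 change -1.62, adjusted p = 0.00224). Dlk1, also called Pref-1, a surface protein of preadipocytes, had 167 and 175 FPKM at day 2, against 358 and 616 FPKM at day 0. The day groups of Dlk1 were apart, but the day 0 libraries differed widely, and the change of -1.45 did not pass (adjusted p = 0.0569), though it did without either KO day 2 library (adjusted p = 0.0329 each). Of 12 tested mesenchymal transcription factors, 2 were higher and 1 lower, among them Snai1, with 28.1 and 26.1 FPKM at day 2, against 4.26 and 8.43 FPKM at day 0 (2.00, adjusted p = 0.00564, and 0.0521 without library 1 of TOM day 2). None was higher without library 1 of TOM day 2, 1 without library 2 of TOM day 2 or library 2 of TOM day 0, and none was lower without either KO day 0 library, either TOM day 2 library or library 2 of TOM day 0. In the Wnt pathway, which restrains adipogenesis, 1 of 9 tested genes was higher and 1 lower, namely Lef1 and Sfrp2. Neither call held without either KO day 0 library, library 1 of TOM day 0 or library 2 of TOM day 2, and that of Sfrp2 was also lost without the other TOM libraries.

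Genes that bring fatty acids into the cell and tie them to coenzyme A gave 7 higher and 2 lower of 14 tested (median change 1.01). Fabp4, the adipocyte fatty acid carrier (GRCm38, chr3:10204088-10208576), had 520 and 496 FPKM at day 2, against 17.5 and 21.1 FPKM at day 0 (log2 change 4.66, standard error 0.22, adjusted p = 0.000117), a 26.4-fold ratio of means. Acsl1, the main acyl-CoA synthetase of fat cells, had 107 and 117 FPKM at day 2, against 9.10 and 9.32 FPKM at day 0 (3.47, standard error 0.15, adjusted p = 8.69e-05). Both were many times higher in each day 2 library than in either day 0 library. Fabp5, a relative of Fabp4 with several processed pseudogenes that could share its reads, had 55.6 and 71.7 FPKM at day 2, against 5.21 and 5.10 FPKM at day 0 (3.38). Cav1, the coat protein of caveolae, had 601 and 641 FPKM at day 2, against 149 and 131 FPKM at day 0 (2.14).

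Angptl4, a secreted inhibitor of lipoprotein lipase, had 62.9 and 65.4 FPKM at day 2, against 14.9 and 10.4 FPKM at day 0 (log2 change 2.28, adjusted p = 0.000613). Lpl, the lipase itself, was lower, with 83.0 and 89.1 FPKM at day 2, against 195 and 173 FPKM at day 0 (-1.09, adjusted p = 0.00689, and 0.062 without library 1 of TOM day 2). The lipase and its inhibitor therefore stood on opposite sides. The scavenger receptor Cd36 had 7.38 and 6.68 FPKM at day 2, against 1.84 and 1.07 FPKM at day 0 (1.73, adjusted p = 0.0359), and lost the call with any 1 of the TOM or KO day 0 libraries left out (up to 0.178). With a library left out, 5 to 7 of the list were higher, none was lower without library 1 of TOM day 2, and 1 was lower without any other TOM library or either KO day 0 library.

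Of 14 tested lipid droplet and lipolysis genes, 3 (Cidec, G0s2 and Plin1) passed the filter through TOM day 2 alone and had to differ, so their values are given as a description with no test. Of the other 11, 5 were higher and 1 was lower (median change 0.64), and 4 of the higher ones were called in every fit that left out a library. Cidec, which fuses lipid droplets, had 20.6 and 18.5 FPKM at day 2, against 0.309 and 0.450 FPKM at day 0. Pnpla2, the lipase ATGL that starts triglyceride breakdown, had 43.6 and 43.5 FPKM at day 2, against 6.26 and 4.87 FPKM at day 0 (log2 change 2.77, standard error 0.31, adjusted p = 0.00202). Its coactivator Abhd5 had 177 and 149 FPKM at day 2, against 20.1 and 21.1 FPKM at day 0 (2.92, adjusted p = 0.000156), and its inhibitor G0s2 had 9.11 and 15.4 FPKM at day 2, against 0.331 and 0.821 FPKM at day 0. The lipase and its activator were both called higher. Lipe, the hormone-sensitive lipase, changed by 2.54, and Fitm2, which partitions fat into droplets, by 2.08.

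Plin1, the coat of mature fat cells, had 4.54 and 4.32 FPKM at day 2, against 0.138 and 0.345 FPKM at day 0. Plin2, the coat found on droplets of most cells, had 24.9 and 22.7 FPKM at day 2, against 64.9 and 51.5 FPKM at day 0 (log2 change -1.25, adjusted p = 0.00303). Plin2 was still the more abundant per length at day 2.

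The enzymes of triglyceride assembly gave 4 higher and no lower genes of 13 tested (median change 0.35), but 2 were higher with any 1 of the TOM or KO day 0 libraries left out, 3 without either KO day 2 library, and 2 after TPM rescaling. Dgat2, which adds the last acyl chain, had 11.8 and 14.6 FPKM at day 2, against 1.49 and 1.26 FPKM at day 0 (log2 change 2.58, standard error 0.20, adjusted p = 0.000427). Gpat3, which adds the first, had 11.3 and 8.55 FPKM at day 2, against 0.795 and 0.647 FPKM at day 0 (2.65, adjusted p = 0.00141). Of 13 tested fatty acid synthesis genes, 1 was higher and 2 were lower (median change 0.09, and -0.09 after TPM rescaling). Scd1, the stearoyl-CoA desaturase, had 20 and 16.7 FPKM at day 2, against 9.30 and 9.37 FPKM at day 0 (0.90, adjusted p = 0.0141), and lost the call without library 1 of TOM day 2 or either TOM day 0 library (up to 0.0968). Fads1, a desaturase of long-chain fatty acids, changed by -0.96 (adjusted p = 0.00833, and 0.0614 without library 2 of TOM day 2). No member was higher without library 1 of TOM day 2 or either TOM day 0 library and 2 were without either KO day 2 library, while none was lower without library 2 of TOM day 2 and 1 was without either day 0 library of either line.

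Acly, which makes acetyl-CoA for the pathway, had 29.3 and 22.9 FPKM at day 2, against 30.5 and 24.5 FPKM at day 0 (adjusted p = 0.883). Scd2 had 49.5 and 48.2 FPKM at day 2, against 42.7 and 44.1 FPKM at day 0 (adjusted p = 0.512). Of 24 tested genes of cholesterol synthesis and uptake, 2 were lower and none higher (median change -0.04), and 1 was lower with any 1 of the TOM or KO day 0 libraries left out. Insig1, which retains the sterol sensor in the endoplasmic reticulum, had 7.49 and 6.88 FPKM at day 2, against 21.5 and 17.8 FPKM at day 0 (log2 change -1.33, adjusted p = 0.00303). Hmgcs1, an early enzyme of the pathway, had 52.5 and 48.4 FPKM at day 2, against 43.4 and 45.1 FPKM at day 0, and did not pass (adjusted p = 0.506).

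Of 12 tested secreted factors of fat tissue, Cfd passed the filter through TOM day 2 alone and had to differ. Of the other 11, 5 were higher and none was lower (median change 0.89), and 4 of these were called in every fit that left out a library. Saa3, a serum amyloid A protein, had 401 and 396 FPKM at day 2, against 92.2 and 78.0 FPKM at day 0 (log2 change 2.22, standard error 0.18, adjusted p = 0.000512). Vegfa, the vascular growth factor, had 135 and 117 FPKM at day 2, against 35.9 and 45.6 FPKM at day 0 (1.61), and angiotensinogen, Agt, had 42.9 and 51.1 FPKM at day 2, against 14.8 and 11.5 FPKM at day 0 (1.76). Adiponectin, Adipoq, a defining product of adipocytes, had 8.95 and 12.3 FPKM at day 2, against 1.08 and 0.764 FPKM at day 0 (2.59, adjusted p = 0.00212). Adipsin, Cfd, had 2.65 and 3.84 FPKM at day 2, against 0.0617 and 0 FPKM at day 0. Both were far under Saa3 in FPKM at day 2. Lcn2, a siderophore-binding lipocalin, had 276 and 276 FPKM at day 2, against 145 and 151 FPKM at day 0 (0.89, adjusted p = 0.00689, and above 0.05 without either TOM day 2 library, 0.0602 at most).

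**Figure D3:**
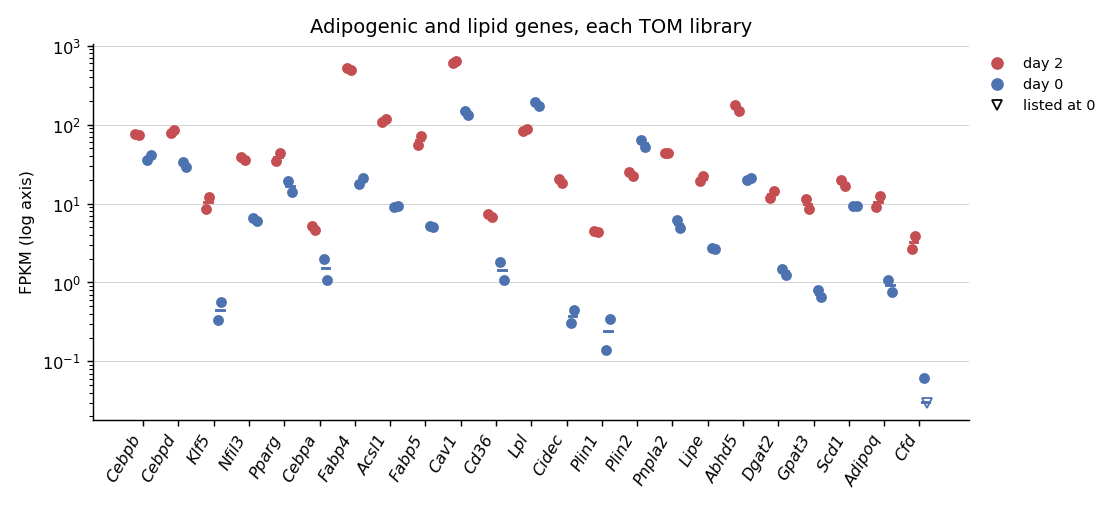
FPKM on a log axis for adipogenic factors, lipid genes and adipokines, with day 2 (red) left of day 0 (blue), 1 point per TOM library and a bar at the mean of 2, and values listed at 0 as open triangles. Fabp4, Acsl1, Cidec and Dgat2 lie far higher at day 2, Pparg and Cebpa less so, and Lpl and Plin2 lie lower at day 2.

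The label of a preadipocyte line turning into adipocytes was checked against markers. All 8 adipocyte markers, Fabp4, Adipoq, Cfd, Plin1, Cidec, Pparg, Lpl and Cd36, had a value above 0 in both day 2 libraries. All but Cfd were above 0 in both day 0 libraries too, so this does not separate the days. For Cfd, Plin1 and Cidec, which passed the filter through day 2 alone, it was fixed in advance. Of the 5 that did not pass the filter through day 2 alone, 4 were called higher and Lpl lower, and the calls of Pparg and Cd36 were lost with libraries left out, as given above. Of the preadipocyte markers, Pdgfra had 106 and 104 FPKM at day 2, against 113 and 105 FPKM at day 0. Ly6a had 103 and 104 FPKM at day 2, against 127 and 93.1 FPKM at day 0, with no call for either. Pdgfrb had 6.04 and 7.78 FPKM at day 2, against 23.4 and 22.8 FPKM at day 0 (log2 change -1.61, adjusted p = 0.00112). Thy1 had 4.64 and 6.76 FPKM at day 2, against 10.2 and 10.6 FPKM at day 0 (adjusted p = 0.113). Of 15 tested surface markers, 1 was higher and 3 were lower, with Cd24a at 54.5 and 53.9 FPKM at day 2, against 4.90 and 4.26 FPKM at day 0 (3.31, adjusted p = 0.000405), and the adhesion molecule Vcam1 at 22.8 and 23 FPKM at day 2, against 93.0 and 85.9 FPKM at day 0 (-1.92, adjusted p = 0.00028). The count of lower markers was 2 with any 1 of the TOM or KO day 0 libraries left out. In bulk RNA, fewer cells of a type and less RNA per cell cannot be told apart.

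Markers of other cell types were then read. None of 7 skeletal muscle or 5 epithelial markers passed the filter, and their summed levels were 1.22 and 1.53 FPKM at day 2, against 1.03 and 2.11 FPKM at day 0, for muscle and 0.921 and 0.241 FPKM at day 2, against 0.858 and 1.20 FPKM at day 0, for epithelium. Of 8 macrophage and leukocyte markers, 3 were tested and none changed, and Adgre1 and Mrc1 were listed at 0 in both day 2 libraries, with at most 0.21 FPKM at day 0. Summed leukocyte markers were 7.66 and 5.83 FPKM at day 2, against 6.04 and 6.52 FPKM at day 0, which overlap. One endothelial marker of 6, 1 chondrocyte marker of 6 and 1 brown adipocyte marker of 6 were tested, and none of them changed. The brown fat gene Ucp1 was listed at 0 in both day 2 libraries. Of 8 osteoblast markers, 4 were tested and only Spp1, osteopontin, which many other cells also make, was lower, with 229 and 228 FPKM at day 2, against 1540 and 1390 FPKM at day 0 (log2 change -2.67, standard error 0.13, adjusted p = 0.000117), while Bglap and Bglap2 were listed at 0 in all 4 TOM libraries.

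The extracellular matrix changed in composition. Of 30 tested matrix glycoproteins and proteoglycans, 5 were higher and 6 lower (median change -0.34), with 1 of the lower ones, Fmod, tested through day 0 alone. Vcan, the proteoglycan versican, had 893 and 805 FPKM at day 2, against 78.9 and 113 FPKM at day 0 (log2 change 3.16, standard error 0.19, adjusted p = 0.00019). Thbs1, thrombospondin 1, had 5.86 and 6.92 FPKM at day 2, against 75.6 and 80.1 FPKM at day 0 (-3.42, adjusted p = 8.69e-05). Thbs2 had 19.7 and 21.6 FPKM at day 2, against 198 and 167 FPKM at day 0 (-3.08, adjusted p = 0.000108). Versican and the thrombospondins moved in opposite directions with no overlap. Ogn, the small proteoglycan mimecan, had 4.78 and 3.86 FPKM at day 2, against 126 and 111 FPKM at day 0 (-4.49, adjusted p = 3.47e-05). Fibronectin, Fn1, had 285 and 265 FPKM at day 2, against 95.8 and 252 FPKM at day 0 (adjusted p = 0.301), with the day 0 libraries far from each other, and passed as higher without library 2 of TOM day 0 (adjusted p = 0.0077). Periostin, Postn, had 592 and 570 FPKM at day 2, against 624 and 591 FPKM at day 0 (adjusted p = 0.834). Leaving out either TOM day 2 library gave 2 higher genes, and there were 3 without library 1 of TOM day 0. The lower genes were 3 without library 1 of TOM day 2.

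Of 20 tested collagen chains, 7 were higher and 4 lower (median change 0.41), and the higher ones were 4 without library 1 of TOM day 2. The basement membrane chains Col4a1 and Col4a2 rose, with 321 and 348 FPKM at day 2, against 141 and 119 FPKM at day 0 for Col4a1 (log2 change 1.36, adjusted p = 0.00115), and a change of 1.38 for Col4a2. Another chain of that type, Col4a5, fell to 7.16 and 5.92 FPKM at day 2, against 46.0 and 37.0 FPKM at day 0 (-2.49, adjusted p = 0.000368). The beaded-filament chains Col6a1, with 482 and 526 FPKM at day 2, against 274 and 236 FPKM at day 0 (0.98, adjusted p = 0.00464), and Col6a2 (1.35, adjusted p = 0.00292) were higher. Of the fibre-forming chains, Col1a2 had 207 and 214 FPKM at day 2, against 456 and 409 FPKM at day 0 (-1.03, adjusted p = 0.00296). Its partner Col1a1 had 101 and 107 FPKM at day 2, against 90.7 and 239 FPKM at day 0, which overlap, and Col3a1 had 780 and 795 FPKM at day 2, against 978 and 773 FPKM at day 0, with no call for either, although Col1a1 passed as lower without library 1 of TOM day 0 (adjusted p = 0.0132).

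Of 18 tested genes that process and crosslink collagen, 3 were higher and 7 lower (median change -0.40). The crosslinking enzyme lysyl oxidase, Lox, had 69.0 and 68.8 FPKM at day 2, against 138 and 146 FPKM at day 0 (log2 change -1.03, adjusted p = 0.00297). Pcolce, which speeds the trimming of procollagen, had 166 and 182 FPKM at day 2, against 449 and 401 FPKM at day 0 (-1.28, adjusted p = 0.00122). Plod2, a lysyl hydroxylase, was higher, with 11 and 13.4 FPKM at day 2, against 3.52 and 2.97 FPKM at day 0 (1.63). The higher genes were 1 without library 2 of TOM day 2, and the lower ones were 4 without either TOM day 2 library. Among matrix metalloproteinases and their inhibitors, 8 of 15 tested genes were lower and 1 was higher (median change -0.98), and the lower ones were 5 without either KO day 0 library, library 1 of TOM day 0 or library 1 of TOM day 2.

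Stromelysin, Mmp3, had 4.71 and 3.81 FPKM at day 2, against 55.6 and 45.5 FPKM at day 0 (log2 change -3.29, standard error 0.20, adjusted p = 0.000207), and the gelatinase Mmp9 had 1.22 and 1.92 FPKM at day 2, against 14.7 and 15.0 FPKM at day 0 (-2.64, adjusted p = 0.000457). The membrane-bound collagenase Mmp14 had 66.7 and 67.9 FPKM at day 2, against 157 and 165 FPKM at day 0 (-1.24). Inhibitors fell alongside, with changes of -2.20 for Timp3 and -1.40 for Timp2. The gelatinase Mmp2 had 206 and 204 FPKM at day 2, against 216 and 199 FPKM at day 0 (adjusted p = 0.965). Adamts1, which cleaves versican, was the 1 higher gene, with 206 and 223 FPKM at day 2, against 81.3 and 67.0 FPKM at day 0 (1.53, adjusted p = 0.000926). In the TGF-beta and BMP list, 5 of 19 tested genes were higher and 2 lower (median change 0.26). The receptor Tgfbr2 had 58.8 and 57.4 FPKM at day 2, against 18.3 and 17.8 FPKM at day 0 (1.63, adjusted p = 0.00087), and the activin antagonist follistatin, Fst (1.68), was higher too. The 2 lower calls were lost without library 1 of TOM day 0 or library 1 of TOM day 2, and 1 was lost without either KO day 0 library, library 2 of TOM day 0 or library 2 of TOM day 2.

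Genes of the contractile apparatus, which stress fibres and smooth muscle share, were lower for 6 of 19 tested members and higher for none (median change -0.40), with 4 to 6 lower when each library was left out, the fewest without library 2 of TOM day 0. Serum response factor binds the CArG box in the promoters of many such genes, and a search of both strands for that motif found it in 5 of 18 promoters of the list (27.8%), in 13 of 442 lower genes (2.94%), in 7 of 375 higher genes (1.87%) and in 162 of all 10090 (1.61%). The other members that hold it were not called, and no match was found for the lower genes Acta2 and Tpm1. The windows of the 2 lower members that hold it are shown as above, with the motif in capitals.
Cnn2 (chr10:79988524-79988573, plus strand, 56 bases before the start): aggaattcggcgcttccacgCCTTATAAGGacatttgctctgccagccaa
Myl9 (chr2:156775283-156775332, plus strand, 161 bases before the start): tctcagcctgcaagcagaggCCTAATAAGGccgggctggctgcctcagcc
Cnn2, calponin 2, had 22.2 and 22.9 FPKM at day 2, against 93.9 and 77.1 FPKM at day 0 (log2 change -1.87, standard error 0.15, adjusted p = 0.000463). Myl9, a myosin light chain, had 1.79 and 0.378 FPKM at day 2, against 9.81 and 15.0 FPKM at day 0 (-2.74, adjusted p = 0.00671, and 0.0556 without library 2 of TOM day 0). The steepest fall was that of smooth muscle actin, Acta2, with 1.5 and 3.62 FPKM at day 2, against 52.0 and 51.0 FPKM at day 0 (-3.95, standard error 0.29, adjusted p = 0.000377). Tropomyosin 1, Tpm1, had 43.9 and 38.2 FPKM at day 2, against 225 and 232 FPKM at day 0 (-2.45). Ankrd1, a stretch-responsive nuclear protein, changed by -2.63. Cytoplasmic actin, Actb, had 920 and 911 FPKM at day 2, against 1020 and 892 FPKM at day 0, which overlap (adjusted p = 0.879).

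**Figure D4:**
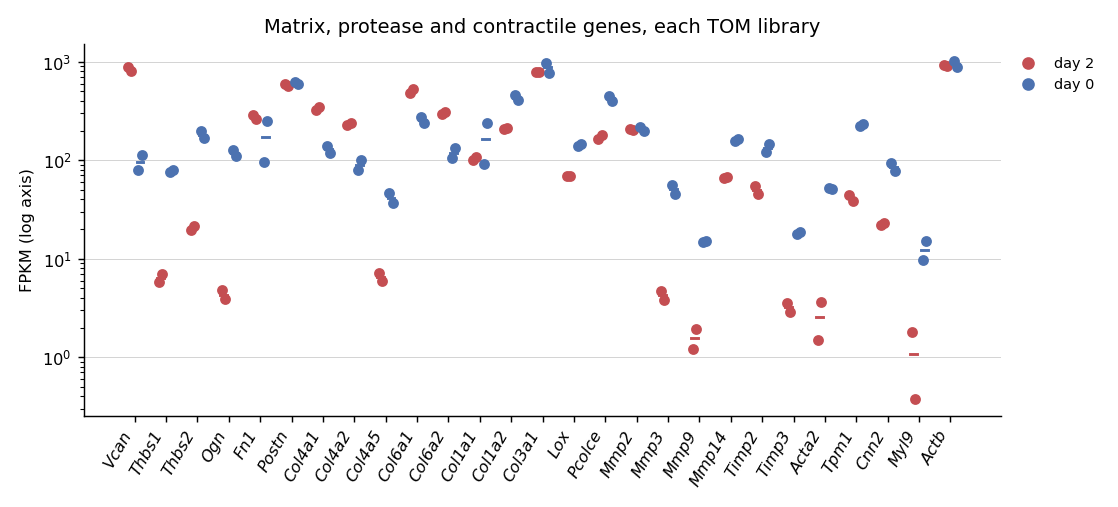
FPKM on a log axis for matrix, protease and contractile genes, with day 2 (red) left of day 0 (blue), 1 point per TOM library and a bar at the mean of 2. Vcan, Col4a1 and Col6a1 lie higher at day 2, Thbs1, Ogn, Mmp3 and Acta2 lie lower, and the 2 day 0 points of Fn1 and of Col1a1 stand far from each other.

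Chemokines and cytokines were lower for 6 and higher for 2 of 17 tested genes (median change -0.69), and none was higher without either KO day 0 library, either TOM day 2 library or library 1 of TOM day 0, nor after TPM rescaling, and 1 was without library 2 of TOM day 0. Ccl2, which draws monocytes, had 26.3 and 43.4 FPKM at day 2, against 238 and 198 FPKM at day 0 (log2 change -2.65, standard error 0.30, adjusted p = 0.00239). Cxcl5 had 51.4 and 49.0 FPKM at day 2, against 160 and 120 FPKM at day 0 (-1.45). The macrophage growth factor Csf1 changed by -1.34. Cxcl12, which retains blood stem cells in the marrow, had 284 and 281 FPKM at day 2, against 277 and 284 FPKM at day 0 (adjusted p = 0.975). Outside this list, the interleukin 1 receptor antagonist Il1rn had 102 and 80.7 FPKM at day 2, against 1.88 and 2.12 FPKM at day 0 (4.94, standard error 0.33, adjusted p = 0.000276). It is not 1 of the 2 higher genes counted above. Of 12 tested complement genes, again counting Cfd apart, 2 of the other 11 were higher and 3 lower. C3, the central component, had 493 and 497 FPKM at day 2, against 231 and 242 FPKM at day 0 (1.06, adjusted p = 0.00536). The proteases of the classical branch, C1s1 (-1.32) and C1ra (-1.73), were lower. Both higher calls held in every fit that left out a library.

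Other genes among the 12 largest rises and falls were Anxa8, a membrane-binding annexin, with 95.6 and 88.8 FPKM at day 2, against 2.38 and 1.39 FPKM at day 0 (log2 change 5.03, adjusted p = 0.000143). Ear2, an eosinophil-associated ribonuclease with close relatives, had 32.5 and 25.5 FPKM at day 2, against 0.337 and 0.521 FPKM at day 0 (4.38). The lipocalin Apod had 18.3 and 21.0 FPKM at day 2, against 492 and 473 FPKM at day 0 (-4.55, standard error 0.16, adjusted p = 5.7e-05), the 1 gene among the 12 largest falls that is not on the interferon list.

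Cell cycle genes gave no call in 2 lists of 20 tested genes each, mitosis and DNA replication, with median changes of -0.20 and 0.00. Top2a, the topoisomerase of dividing cells, had 45.6 and 46.1 FPKM at day 2, against 33.1 and 25.3 FPKM at day 0 (log2 change 0.65, adjusted p = 0.0927). Cyclin D1, Ccnd1, was lower, with 19.6 and 20.4 FPKM at day 2, against 68.1 and 58.0 FPKM at day 0 (-1.60, standard error 0.14, adjusted p = 0.000697), and 2 of 9 tested D cyclins and cell cycle inhibitors were lower in all, or 1 with any 1 library other than library 2 of TOM day 0 left out. Of the p53 targets, 2 of 14 tested were lower and none higher, among them the kinase Plk2 (-2.23, adjusted p = 0.000404). Replication-dependent histones gave 1 higher of 53 tested, and 3 without library 2 of TOM day 0 or 2 without library 1 of TOM day 0.

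Lysosomal and autophagy genes were lower for 10 of 19 tested members and higher for none (median change -0.81), and the count was 5 without library 1 of TOM day 0. Cathepsin K, Ctsk, had 2.1 and 4.34 FPKM at day 2, against 23.4 and 25.4 FPKM at day 0 (log2 change -2.64, adjusted p = 0.00224). The membrane protein Lamp1 had 144 and 155 FPKM at day 2, against 336 and 302 FPKM at day 0 (-1.09, adjusted p = 0.00316). Ctsa (-1.55) and Hexa (-1.52), which degrade glycoproteins and glycolipids, were lower as well. The autophagy receptor Sqstm1 had 114 and 90.3 FPKM at day 2, against 188 and 186 FPKM at day 0 (-0.87, adjusted p = 0.0223), and lost the call without either KO day 0 library, either TOM day 0 library or library 2 of TOM day 2 (up to 0.131). Lamp1, Sqstm1, Bst2, Thbs2, Pcolce, Col1a2 and Dlk1 are the genes that the study named from these libraries, and 6 of these 7 were lower here, which is no independent evidence of their direction.

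Glycolysis and hypoxia genes gave 7 higher and 1 lower of 21 tested (median change 0.53), but 3 higher after TPM rescaling, 4 without library 1 of TOM day 2 or either KO day 0 library and 3 without library 2 of TOM day 2 or library 2 of TOM day 0. Lactate dehydrogenase, Ldha, had 199 and 201 FPKM at day 2, against 102 and 85.7 FPKM at day 0 (log2 change 1.09, adjusted p = 0.00337), and Eno1 (1.02) and the mitophagy receptor Bnip3 (1.26) were higher. The lower call was lost without library 2 of TOM day 2 or either TOM day 0 library. Pyruvate carboxylase, Pcx, which feeds the citrate cycle, had 60.1 and 65.4 FPKM at day 2, against 13.4 and 9.14 FPKM at day 0 (2.40, standard error 0.23, adjusted p = 0.00104), 1 of 3 higher genes of 17 tested in that cycle (1 without either TOM day 2 library or after TPM rescaling, 2 without any other TOM or KO day 0 library). Nuclear-encoded respiratory chain genes gave 1 higher of 90 tested (2 without library 1 of TOM day 0, none without library 2 of TOM day 0 or either TOM day 2 or KO day 0 library) and ribosomal proteins 2 of 75 (1 without either KO day 0, either KO day 2, library 2 of TOM day 0 or library 1 of TOM day 2), led by Rplp0 (0.99, adjusted p = 0.00423).

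In the oxidative stress list, 2 of 18 tested genes were higher and 3 lower, and 1 was higher with any 1 of the TOM or KO day 0 libraries left out. Gclc, the limiting enzyme of glutathione synthesis, had 8.97 and 7.66 FPKM at day 2, against 1.75 and 1.62 FPKM at day 0 (log2 change 1.79, adjusted p = 0.00204), while heme oxygenase, Hmox1, had 16.7 and 16.3 FPKM at day 2, against 43.8 and 40.3 FPKM at day 0 (-1.30, adjusted p = 0.0031). Gsta4 changed by -1.12. The integrated stress response gave 6 lower and no higher genes of 17 tested (median change -0.40), Ddit3 first, but 3 lower without library 1 of TOM day 2 or either KO day 0 library, 2 without library 2 of TOM day 0 and 1 without library 1 of TOM day 0 or library 2 of TOM day 2. Of 16 endoplasmic reticulum chaperones, 1 was higher and 1 lower. The higher call was lost without library 2 of TOM day 0 or either TOM day 2 library, and the lower one without library 1 of TOM day 0 or either TOM day 2 library. Of 15 circadian clock genes, 2 were higher and 2 lower. None was higher without either KO day 0 library, library 1 of TOM day 0 or either TOM day 2 library, or after TPM rescaling, and the lower ones were 1 without any TOM library except library 2 of TOM day 0, without which none was lower. Of 29 P-body and mRNA decay genes, 1 was higher and none lower, or 5 higher without library 2 of TOM day 0 and none without library 1 of TOM day 0 or library 1 of TOM day 2.

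**Figure D5:**
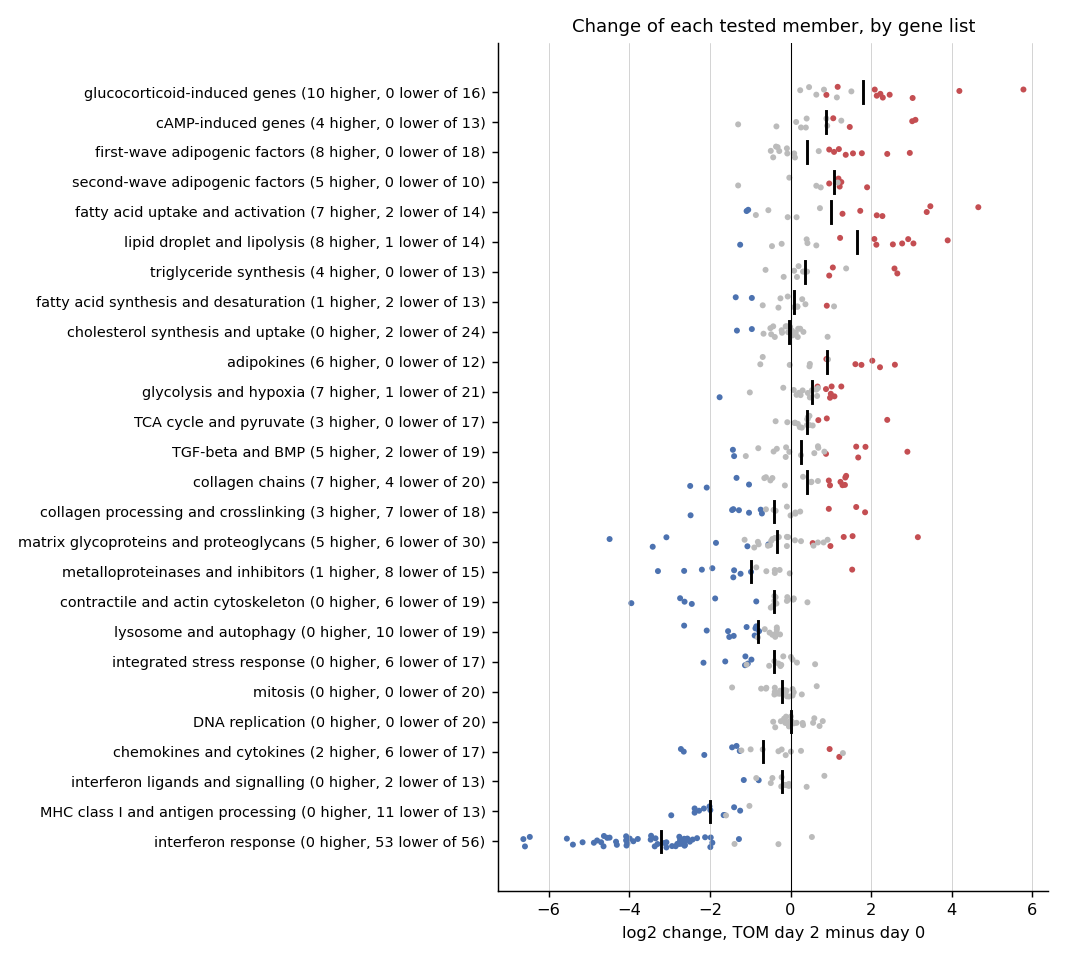
Log2 change in TOM cells, day 2 minus day 0, of each tested member of 26 gene lists, with 1 row per list, points in red for higher, blue for lower and grey for not past the threshold, and a black bar at the median. All 16 points of the glucocorticoid row lie to the right of zero, 10 of them past the threshold, and 55 of 56 points of the interferon response row and all 13 of the MHC class I row lie to the left.

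The change in TOM cells was set against the change in Ddx6-KO cells, which share no library with it, by a test of the difference itself. It differed for 663 of 15811 genes (4.19%), and this count was 371 without library 1 of TOM day 0, 391 without library 2 of TOM day 0, 272 without library 1 of TOM day 2, 259 without library 2 of TOM day 2, 183 without library 1 of KO day 0, 188 without library 2 of KO day 0 and 412 without library 1 of KO day 2. In the interferon response list, 28 of 56 changes differed between the lines. Mx1 changed by -4.80 in TOM cells and by -0.14 in Ddx6-KO cells, where it had 1.06 and 0.62 FPKM at day 2, against 1.06 and 0.955 FPKM at day 0 (adjusted p of the difference = 0.000784), so the Ddx6-KO libraries were low at both days. Isg15 changed by -6.63 in TOM cells and by -4.37 in Ddx6-KO cells (adjusted p of the difference = 0.107).

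In the lipid lists, 8 of 14 uptake and activation genes differed between the lines. The droplet list also gave 8 of 14, but 3 of these, Cidec, G0s2 and Plin1, passed the filter through TOM day 2 alone and had to differ. Nothing is read from those 3, and the 2 lists are not compared. Fabp4 changed by 4.66 in TOM cells and by -1.97 in Ddx6-KO cells, where it had 8.03 and 4.66 FPKM at day 2, against 27.5 and 26.6 FPKM at day 0 (adjusted p of the difference = 0.000229). The glucocorticoid list held 6 of 16 genes whose change differed, and Fkbp5, at 3.03 in TOM cells and 2.90 in Ddx6-KO cells, was not one of them (adjusted p of the difference = 0.897). Ogn and Apod moved in opposite directions, by -4.49 and -4.55 in TOM cells and by 3.79 and 5.34 in Ddx6-KO cells (adjusted p of the difference = 5.03e-06 for both). Each line is 1 mock or knockout line, so the effect of the knockout and that of the line cannot be told apart.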

How the data were processed

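FPKM per gene were computed by the authors with TopHat2 2.1.0 on GRCm38/mm10 and Cufflinks 2.2.1 after stranded total RNA sequencing on HiScanSQ, and the deposited FPKM were used as they stand. No annotation release was found in the paper or labels. GENCODE M21 named 45139 of 46073 genes. Columns were placed in groups by line and day, since their numbers match the label numbers only in part.

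Tested genes, as defined above, were fitted as log2(FPKM + 1) with limma 3.58.1 (R 4.3.3), with 1 mean per group and a variance trend. Contrasts were TOM day 2 minus day 0 and the TOM change minus the KO change. Tested on simulated data, the fit called 78 of 100 genes changed by 2 log2 units, 23 of 100 changed by 1, and 2 of 15611 unchanged genes. Depth was approximated from the FPKM of 1 fragment. Promoters came from RefSeq.

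The members and the 49 gene lists were chosen with earlier results of these data known. The text names the 12 called protein-coding genes that moved most each way, with a mean of at least 5 FPKM in the higher day and no overlap, and up to 6 members of each list by smallest p. It also names up to 3 abundant members that did not pass, cell type markers, the genes of the study and Ddx6. Some genes that this rule takes are not reported here. Cd36, Plin1, Thy1, Fmod, Rpl17, Rps13, Rps16, the members listed at 0 and the genes of the closing observations were picked once their values were known. The alternatives comprised other pseudocounts (0.1 and 5), other filters (none, 5 FPKM, each TOM day), TPM, median-ratio and quantile scaling, no variance trend, TOM libraries alone, library weights, a replicate block and each library left out, where the lone partner takes its spread from the other groups. Python 3.11.15, pandas 2.3.3, numpy 2.4.6 and matplotlib 3.10.9 were used.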

Additional observations from a re-analysis of the deposited data

Results flagged for a closer look

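Of the 143 named genes called in TOM cells, 76 also differed in their change between the lines, by the interaction contrast of the limma fit at an adjusted p under 0.05, and 34 of these had changes of opposite sign in the 2 lines. Over all tested genes 4.19% differed, and many of the named genes had been picked for a strong TOM change. A sign was counted whether or not the Ddx6-KO change itself passed. Fitm2, for example, changed by -0.06 in Ddx6-KO cells and Cnn2 by 0.09. Below, reversed means only a change of opposite sign. The values in parentheses are the TOM change minus the Ddx6-KO change, in log2 units. They are given as values, and no cause was tested. Cidec, G0s2, Plin1 and Cfd passed the filter through TOM day 2 alone and had to differ, so that nothing is read from theirs.

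Among genes higher at day 2 in TOM cells, the difference was positive, the rise being larger in TOM cells or reversed in Ddx6-KO cells, for Lcn2 (3.95), Fabp4 (6.63), Saa3 (4.84), Acsl1 (3.95), Cav1 (2.84), Ldha (2.96), Has2 (3.37), Anxa8 (6.23), Mt2 (2.90), Ddit4 (2.65), Bnip3 (2.47), Vegfa (2.89), Dgat2 (3.39), Scd1 (2.63), Eno1 (2.34), Hp (2.32), Abhd5 (2.43), Fabp5 (4.53), Hgf (2.22), Dbi (2.37), Nfil3 (2.26), Fitm2 (2.15), Cidec (3.85), Gpat3 (3.02), Plod2 (1.88), Cd24a (2.73), Il1rn (3.45), Id1 (1.76), Srebf1 (1.54), Glul (1.43), Fgf10 (1.98), Serpina3n (1.43), Pcx (1.98), Pnpla2 (2.61), Lipe (1.76), G0s2 (2.73), Snai1 (1.94), Angptl4 (1.31), Acadm (1.52), Plin1 (1.98), Cfd (2.03). It was negative, the rise being larger in Ddx6-KO cells, for Tsc22d3 (-2.72), Pde4d (-1.45).

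Among genes lower at day 2 in TOM cells, the difference was negative, the fall being larger in TOM cells or reversed in Ddx6-KO cells, for Ogn (-8.28), Apod (-9.89), Mx1 (-4.66), Plk2 (-3.04), Mmp14 (-2.04), Bst2 (-4.29), Acta2 (-4.71), Igtp (-3.51), Tpm1 (-2.06), Cnn2 (-1.96), Sparcl1 (-2.95), Ifit3 (-3.69), Ifit3b (-2.98), Thbs2 (-1.72), Vcam1 (-1.54), Tap1 (-2.12), Hexa (-1.97), Ifit1 (-3.36), Irf1 (-1.54), Ccnd1 (-1.32), Timp2 (-1.50), Oasl2 (-2.95), Gsta4 (-1.36), Ctsk (-2.57), Rtp4 (-1.95), Ctsa (-1.45), Lpl (-1.22), Cxcl10 (-1.78), Lamp1 (-0.99), Myl9 (-2.68). It was positive, the fall being larger in Ddx6-KO cells, for Spp1 (2.02), Cxcl5 (1.85), Ccl2 (2.60).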

How the results depend on the processing

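Genes higher at day 2 in TOM cells (538) and genes lower at day 2 in TOM cells (592) gave 315 and 793 after TPM rescaling, 353 and 418 with no filter, 139 and 180 with the TOM libraries alone, and 421 and 491 with a replicate block by column number. The numbers do not pair the samples, since deviations of like-numbered TOM libraries correlated at -0.017. With each library left out, the higher genes ran from 213 to 500 and the lower ones from 300 to 581. Genes whose change differed between the lines (663) were 410 with no filter, 486 with the replicate block and 183 to 530 with each library left out. The other alternatives run stayed within 1.5 times of these counts. Of the 143 named genes called, 98 kept the call under every setting run, 44 lost it with the TOM libraries alone, 13 with at least 1 library left out, 6 with a pseudocount of 0.1, 5 with no filter, 5 after TPM rescaling and 2 with the replicate block, and none changed direction. The causes were not tested. In the simulation 23 of 100 changes of 1 log2 unit were called, but fewer genes changed there than were called in the data. Rises down to 0.54 log2 units were called in the data. With 2 libraries a group, changes near 1 log2 unit may still have been missed. The day 2 libraries and library 2 of TOM day 0 were shallow, which limits what can be said of genes of a few FPKM.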

Other observations

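The genes named here are on no list and were chosen after their values were seen, so that they stand for no group. The acute-phase protein haptoglobin, Hp, was at 63.1 and 71.3 FPKM at day 2, against 11.3 and 10.4 FPKM at day 0 (log2 change 2.52, adjusted p = 0.00019 from limma), and orosomucoid, Orm1, was at 13.1 and 13.1 FPKM at day 2, against 1.07 and 0.948 FPKM at day 0 (2.81, adjusted p = 0.00297). The iron store ferritin, Fth1, had 4370 and 4180 FPKM at day 2, against 1170 and 1510 FPKM at day 0 (1.68, adjusted p = 0.00204). Hyaluronan synthase, Has2, whose product binds versican, had 45.2 and 49.8 FPKM at day 2, against 5.81 and 5.70 FPKM at day 0 (2.84, adjusted p = 0.000143).

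The growth factor Fgf10 had 15.1 and 15.7 FPKM at day 2, against 2.47 and 3.94 FPKM at day 0 (1.99), Hgf had 17.1 and 15.2 FPKM at day 2, against 3.94 and 3.87 FPKM at day 0 (1.81), and the receptor Fgfr2 had 66.0 and 62.6 FPKM at day 2, against 15.1 and 14.8 FPKM at day 0 (2.03). Acadm, which oxidises medium-chain fatty acids, had 147 and 111 FPKM at day 2, against 19.8 and 20.8 FPKM at day 0 (2.60), and Dbi, a carrier of acyl-CoA, had 288 and 243 FPKM at day 2, against 99.1 and 82.6 FPKM at day 0 (1.54). The secreted protein Serpinf1 was lower, with 76.3 and 92.2 FPKM at day 2, against 370 and 415 FPKM at day 0 (-2.21), as were Sparcl1 (-2.86) and the protease inhibitor Slpi (-1.69). Each of these genes was called in all 8 fits that left out a library.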
